A study of Rattus norvegicus with 21 samples.

Results

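Microglial marker genes were followed in cultures of primary rat astrocytes. The markers were 10 genes, taken by symbol from the gene count table of the poly(A) libraries. All 10 were found among its 17311 genes, and all 10 were among the 12096 genes with enough counts to be tested. Cells of neonatal Sprague-Dawley pups at passages 2-3 had been transfected with small interfering RNA (siRNA) with a Lipofectamine reagent. The 9 libraries formed 3 groups of 3. One group had a scrambled siRNA, another an siRNA against TDP-43, and the last that same siRNA together with ATP, an extracellular signalling nucleotide. TDP-43, encoded by Tardbp, is an RNA-binding protein. The labels name 1 TDP-43 siRNA condition, so effects of that siRNA on other transcripts and of TDP-43 loss cannot be told apart. The labels give neither how much ATP was added nor for how long, and no group with ATP and scrambled siRNA was analysed here. Nothing in the labels says whether the replicates came from separate cultures or animals. P-values therefore set the difference between groups against the spread of these libraries within groups, and that spread may be technical only.

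Microglia are the resident macrophages of the brain. They arise from the yolk sac, depend on signalling through the receptor Csf1r, and are commonly carried along in small numbers when astrocytes are grown from neonatal brain. The transcription factor PU.1, encoded by Spi1, directs much of their gene expression. Their surface receptors often signal through adaptor proteins with immunoreceptor tyrosine-based activation motifs. Microglia also make the recognition molecule of the classical complement pathway, C1q. Extracellular ATP is a known signal to microglia, which sense it through purinergic receptors.

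Sequences of the promoters are shown for the pair that rose together with TDP-43 siRNA and ATP, Itgam and Ptprc, and for the pair whose profiles were most alike over the 9 libraries, Csf1r and C1qa. Each runs 5′ to 3′ on the gene's strand, from 250 bases before to 50 bases after the annotated start, as RefSeq gives it on GRCr8, a later build than the rn6 build of the counts. Capitals mark GAGGAA or, on the other strand, TTCCTC, a form of the PU.1 recognition sequence. Other forms were not searched for. Itgam lies at chr1:192089342-192089641 on the plus strand, Ptprc at chr13:52259697-52259996 on the minus strand, Csf1r at chr18:56834129-56834428 on the plus strand and C1qa at chr5:154419884-154420183 on the minus strand.
Itgam: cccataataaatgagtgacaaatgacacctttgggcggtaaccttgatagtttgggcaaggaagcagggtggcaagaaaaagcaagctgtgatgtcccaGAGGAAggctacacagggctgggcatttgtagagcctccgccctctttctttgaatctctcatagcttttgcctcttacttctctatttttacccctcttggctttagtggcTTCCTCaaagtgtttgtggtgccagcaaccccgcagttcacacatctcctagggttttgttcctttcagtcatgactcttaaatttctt
Ptprc: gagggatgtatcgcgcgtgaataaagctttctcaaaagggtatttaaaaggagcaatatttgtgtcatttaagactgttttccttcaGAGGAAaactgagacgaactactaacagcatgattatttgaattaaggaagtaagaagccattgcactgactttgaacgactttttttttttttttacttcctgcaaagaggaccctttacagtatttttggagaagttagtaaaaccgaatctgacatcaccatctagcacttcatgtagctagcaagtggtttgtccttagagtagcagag
Csf1r: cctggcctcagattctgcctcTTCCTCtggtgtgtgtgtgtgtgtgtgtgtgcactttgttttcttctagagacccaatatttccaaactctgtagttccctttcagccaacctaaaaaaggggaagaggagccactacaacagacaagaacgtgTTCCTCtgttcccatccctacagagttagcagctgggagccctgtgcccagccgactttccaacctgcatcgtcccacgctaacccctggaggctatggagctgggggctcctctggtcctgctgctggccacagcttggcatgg
C1qa: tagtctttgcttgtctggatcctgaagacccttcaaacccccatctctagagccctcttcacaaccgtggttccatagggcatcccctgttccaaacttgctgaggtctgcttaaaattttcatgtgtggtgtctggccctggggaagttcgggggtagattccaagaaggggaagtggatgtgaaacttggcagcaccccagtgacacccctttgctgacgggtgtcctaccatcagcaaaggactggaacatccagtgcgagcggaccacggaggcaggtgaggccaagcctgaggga
The letters were found in Itgam, Ptprc and Csf1r and not in C1qa. Of the 8 members with a promoter in the RefSeq table, 6 held the letters on either strand, as did 9239 of all 33469 promoters (27.6%). The 2 members without a match in their window were C1qa and Cx3cr1. Such a match describes the letters and shows no binding.

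The cultures carried the astrocyte markers that their label implies. Gfap, the intermediate filament protein of astrocytes, stood at 2488 ± 337, 2329 ± 475 and 2584 ± 251 CPM (SD, n = 3) in the scrambled, TDP-43 siRNA and ATP groups. CPM are counts per 1000000 of the library total after TMM scaling. Of 14 tested astrocyte markers, 1 rose and 7 fell with TDP-43 siRNA, where 16.2% of all tested genes rose and 18.2% fell. The marker that rose, Slc1a2, had the largest change, a log2 fold change of 2.14 (edgeR adjusted p = 1.93e-05). Mlc1 was at -1.20 and Aqp4 at -1.14. Gjb6, also on the list, had at most 7 counts in any library and was not tested. Of the 7, Glul lost its call without scrambled replicate 1 or TDP-43 siRNA replicate 1 or 2 (edgeR adjusted p = 0.0534, 0.0868 and 0.0595). S100b lost its call in 3 of the 6 fits that left out a library (edgeR adjusted p up to 0.116). Library totals ran from 11.49 to 40.29 M counts. Tardbp fell from 169 ± 10.7 CPM to 24.8 ± 4.5 and, with ATP, 26.2 ± 2.38 CPM (SD, n = 3), and no library overlapped the scrambled group. Scrambled replicate 1 stood apart in another measure: it had 0.0818 counts of repeat elements per gene count, against 0.547 to 3.21 in the other 8 libraries. Calls of members that change without it are given both ways.

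All 10 members were detected in every library, with the fewest counts for Cx3cr1, from 59 to 404. Together they made up 0.0272 to 0.0427% of the gene counts. Their summed level was 374 ± 32.6 CPM (SD, n = 3) with scrambled siRNA, 308 ± 37.5 CPM with TDP-43 siRNA, and 341 ± 50.7 CPM with ATP added. The 3 ranges, 337 to 397, 266 to 336 and 296 to 396 CPM, overlapped or nearly touched, and no test was made of the sum. With scaling by total counts the means were 341, 317 and 364 CPM, so the order of the scrambled group and the group with ATP turned. In such bulk RNA, fewer microglia and less RNA per cell cannot be told apart. Levels are compared within a gene across libraries and not between genes, since transcript lengths were not used.

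After TDP-43 siRNA alone, 1 of the 10 members passed edgeR's quasi-likelihood test at an adjusted p under 0.05 over all genes, and it was lower. Among all tested genes, 34.3% passed (16.2% higher and 18.2% lower). At an unadjusted p under 0.05 there was 1 member, against 44.1% of all genes. The member that fell was Aif1. The groups did not overlap for 0 of the 10 members, against 41.6% of all genes (20.7% higher and 20.9% lower). The median log2 fold change of the members was -0.14, and that of all genes was 0.01. All 10 estimates lay below 0, but 6 of them, those of Cd68, Csf1r, Itgam, Trem2, Cx3cr1 and Ptprc, lay above 0 with scaling by total counts, which moved the median of all genes to 0.18.

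With ATP added to the knockdown, and against scrambled siRNA, 3 of the 10 members passed: Itgam and Ptprc rose and Aif1 fell. The background was 37.4% of all genes, 17.4% higher and 20.0% lower. The groups did not overlap for these 3 members, against 48.9% of all genes (24.7% higher and 24.1% lower). At an unadjusted p under 0.05 there were the same 3, against 46.4% of all genes. The members' median log2 fold change was 0.05 beside 0.01 for all genes. This comparison shares its scrambled libraries with the previous one, so the 2 are not independent.

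Between the groups with and without ATP, both with TDP-43 siRNA, 0 of the 10 members passed edgeR's test, where 1.07% of all genes did (0.926% higher and 0.141% lower). At an unadjusted p under 0.05 there were 3 members, Itgam, Ptprc and C1qb, against 12.6% of all genes. DESeq2 called 2 members, Itgam (adjusted p = 0.00969) and Ptprc (adjusted p = 0.0353). The libraries did not overlap for Itgam and Ptprc, both higher with ATP, against 25.8% of all genes in either direction. The members' median log2 fold change was 0.22, and that of all genes was near 0 at -0.00075.

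**Figure D1:**
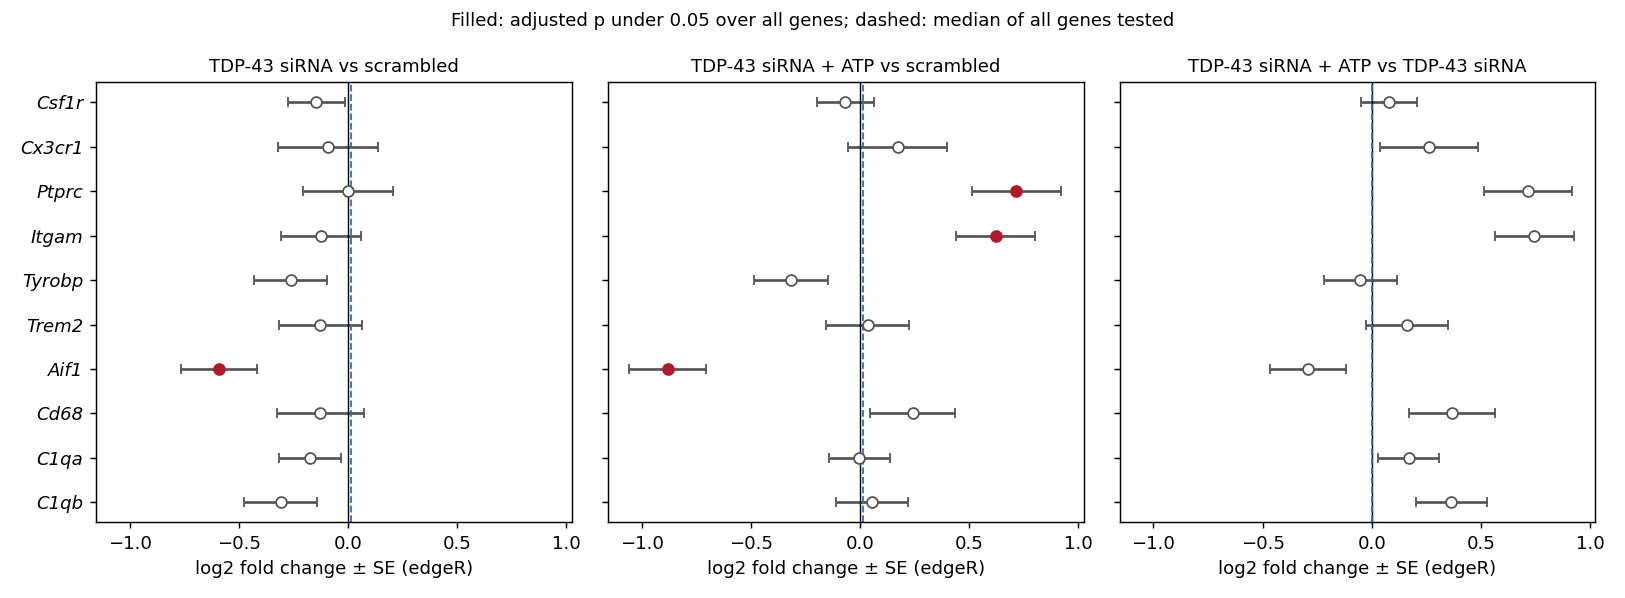
Log2 fold changes (x axis, edgeR, with SE) of the 10 members (y axis) in the 3 comparisons. Filled points passed at an adjusted p under 0.05, and the dashed line is the median of all genes tested. Aif1 lies below 0 in each panel, and Itgam and Ptprc lie above 0.5 in both panels with ATP.

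Csf1r is the receptor for the growth factors Csf1 and Il34, on which microglia depend. It stood at 50.3, 47.5 and 42.6 CPM with scrambled siRNA, 42.7, 42.7 and 41.7 CPM with TDP-43 siRNA, and 40.7, 54.6 and 38.9 CPM with ATP. The groups overlapped, and the libraries with ATP spread the most. The log2 fold change was -0.15 (SE 0.13, edgeR adjusted p = 0.411) with TDP-43 siRNA and -0.07 (SE 0.13, edgeR adjusted p = 0.725) with ATP as well. Neither passed.

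Cx3cr1 is the receptor for fractalkine, by which neurons signal to microglia. Its levels were 10.8, 5.75 and 10.7 CPM with scrambled siRNA, 8.99, 8.12 and 8.88 CPM with TDP-43 siRNA, and 8.05, 12.8 and 10.4 CPM with ATP. The second scrambled library was the lowest of all 9, with 59 counts, and the groups overlapped. The log2 fold changes were -0.09 (SE 0.23) with TDP-43 siRNA, 0.17 (SE 0.23) with ATP as well and 0.26 (SE 0.22) between the last pair, with edgeR adjusted p of 0.792, 0.584 and 0.712. The reference annotation places an uncharacterized locus over Cx3cr1, and reads of the 2 cannot be told apart if counting ignored strand, which no source used here states.

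Ptprc encodes CD45, a phosphatase on the surface of all leukocytes that sets the threshold of receptor signalling. It stood at 15.4, 9.07 and 12.9 CPM with scrambled siRNA, 16.4, 11.3 and 10.3 CPM with TDP-43 siRNA, and 18.9, 23.7 and 19.9 CPM with TDP-43 siRNA and ATP. The 3 libraries with ATP were above all other 6, while the scrambled and TDP-43 siRNA libraries overlapped throughout. In the group with ATP it rose over scrambled siRNA by a log2 fold change of 0.72 (SE 0.20, edgeR adjusted p = 0.0115). Against TDP-43 siRNA alone the value was also 0.72 (SE 0.20), but it did not pass (edgeR adjusted p = 0.111). With TDP-43 siRNA alone the log2 fold change was -0.001 (SE 0.20, edgeR adjusted p = 0.999).

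Itgam encodes CD11b, the alpha chain of complement receptor 3, which binds fragments of C3 on targets to be engulfed. It stood at 12.3, 12.9 and 13.8 CPM with scrambled siRNA, 15.6, 8.83 and 11.1 CPM with TDP-43 siRNA, and 19.8, 22.0 and 18.0 CPM with TDP-43 siRNA and ATP. As for Ptprc, all 3 libraries with ATP were above the other 6. It rose against scrambled siRNA by a log2 fold change of 0.62 (SE 0.18, edgeR adjusted p = 0.0140). Against TDP-43 siRNA alone the value was 0.75 (SE 0.18, edgeR adjusted p = 0.0644), and with TDP-43 siRNA alone it was -0.12 (SE 0.19, edgeR adjusted p = 0.638). The calls of Itgam and Ptprc against scrambled siRNA were lost without replicate 2 of the group with ATP, with edgeR adjusted p of 0.0633 and 0.0546. That library was the highest of its group for all 10 members. For both genes, p was 0.1 in both comparisons with ATP by a two-sided exact permutation test, the smallest that 3 against 3 libraries allow.

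Itgb2 encodes CD18, the beta chain with which CD11b pairs. It was at 16.1, 16.5 and 13.99 CPM with scrambled siRNA, 20.3, 10.2 and 11.2 CPM with TDP-43 siRNA, and 19.1, 26.0 and 18.4 CPM with ATP. The libraries with ATP were above the scrambled ones but overlapped those with TDP-43 siRNA alone. Its log2 fold change was 0.45 (edgeR adjusted p = 0.122) against scrambled siRNA and 0.60 (edgeR adjusted p = 0.221) against TDP-43 siRNA alone, and neither passed. It and the other partners named below that did not pass were chosen after their values were seen.

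**Figure D2:**
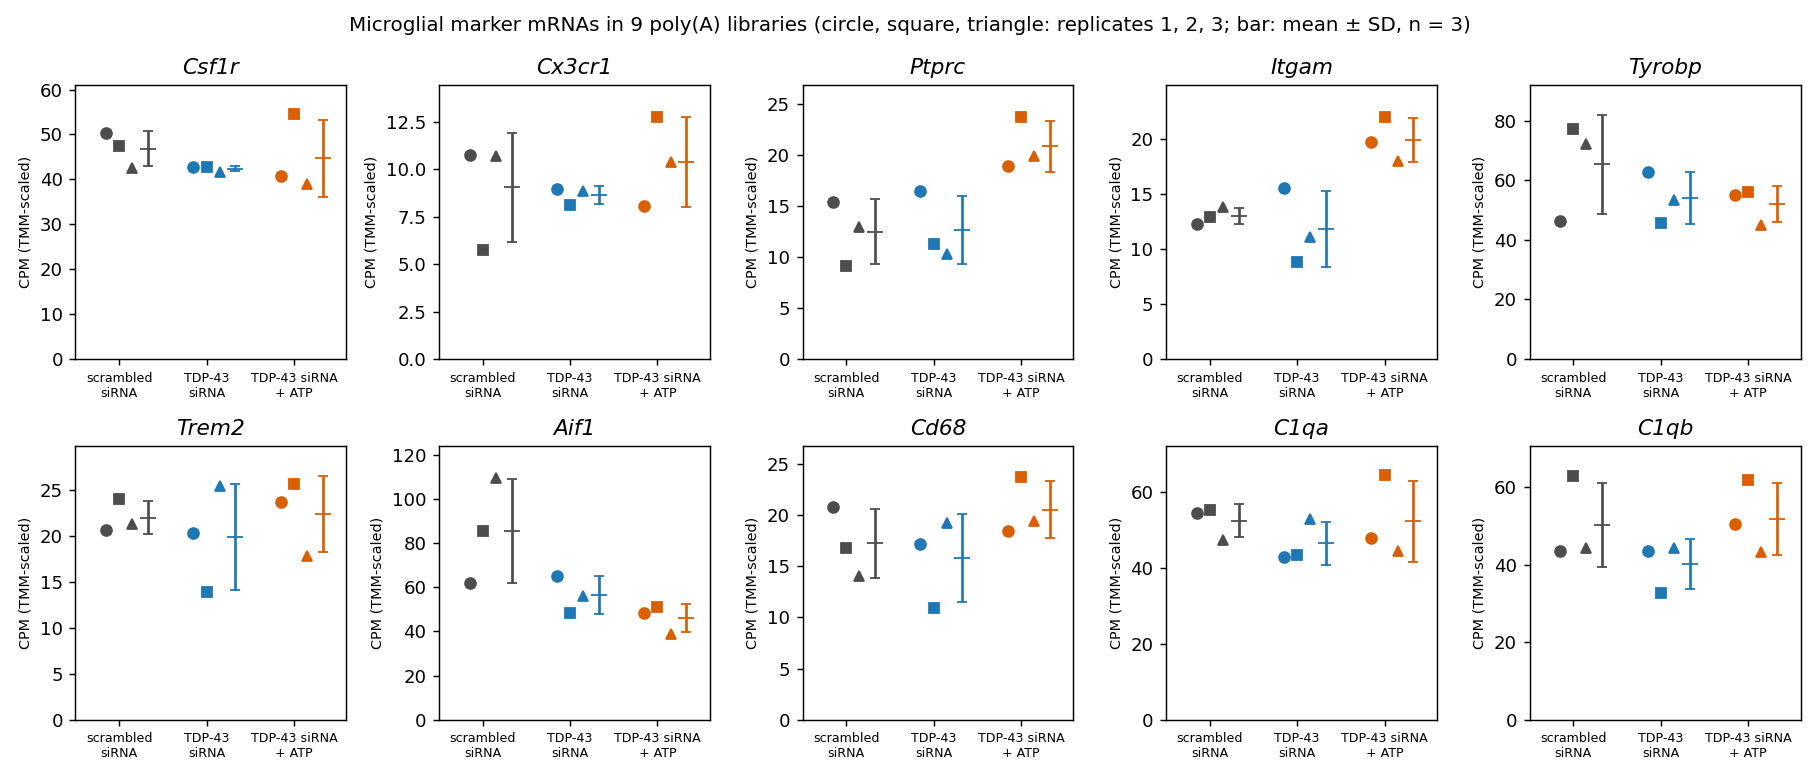
Level of each member (y axis, CPM on TMM-scaled totals, starting at 0) in the 3 groups (x axis). Circles, squares and triangles are replicates 1, 2 and 3, and the bar is the mean with the SD of 3 libraries. The libraries with ATP stand above all others for Itgam and Ptprc, and replicate 2 is the highest of that group in every panel.

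Tyrobp encodes DAP12, an adaptor with an activation motif through which Trem2 and other receptors signal. It stood at 46.5, 77.3 and 72.3 CPM with scrambled siRNA, 62.9, 45.5 and 53.5 CPM with TDP-43 siRNA, and 55.0, 56.3 and 45.1 CPM with ATP. Scrambled replicate 1, the library that stood apart, was far below its other two, and the groups overlapped through it. The log2 fold change was -0.26 (SE 0.17, edgeR adjusted p = 0.246) with TDP-43 siRNA and -0.32 (SE 0.17, edgeR adjusted p = 0.155) with ATP as well. Without scrambled replicate 1 Tyrobp fell in both, by -0.46 (edgeR adjusted p = 0.0126) and -0.52 (edgeR adjusted p = 0.00585). Hcst, its neighbour in the genome and a related adaptor, had 3 to 19 counts in the 9 libraries.

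Trem2 is the lipid-sensing receptor that signals through DAP12. Its levels were 20.6, 24.0 and 21.2 CPM with scrambled siRNA, 20.3, 13.9 and 25.4 CPM with TDP-43 siRNA, and 23.7, 25.6 and 17.8 CPM with ATP. The groups overlapped, and libraries of the same group differed by more than the group means. The log2 fold changes were -0.13 (SE 0.19, edgeR adjusted p = 0.643) with TDP-43 siRNA and 0.04 (SE 0.19, edgeR adjusted p = 0.909) with ATP as well. Trem2 counts per Tyrobp count were 0.349 ± 0.082, 0.368 ± 0.0936 and 0.427 ± 0.0313 (SD, n = 3) in the 3 groups.

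Aif1 encodes Iba1, a calcium-binding protein of the actin cortex by which microglia are stained in tissue. It stood at 61.9, 85.3 and 109 CPM with scrambled siRNA, 65.1, 48.2 and 56.3 CPM with TDP-43 siRNA, and 48.4, 51.3 and 38.9 CPM with TDP-43 siRNA and ATP. Scrambled replicate 1 was again the lowest of its group and lay below the highest TDP-43 siRNA library, whereas the libraries with ATP were below all scrambled ones. Aif1 fell by 0.59 on the log2 scale with TDP-43 siRNA (SE 0.17, edgeR adjusted p = 0.0158) and by 0.88 with ATP as well (SE 0.17, edgeR adjusted p = 0.00103). Between the last pair the log2 fold change was -0.29 (SE 0.17, edgeR adjusted p = 0.544). Without scrambled replicate 1 the log2 fold changes were -0.78 and -1.07 (edgeR adjusted p = 0.000608 and 3.08e-05). The first call was lost without scrambled replicate 3 (log2 fold change -0.37, edgeR adjusted p = 0.105), without TDP-43 siRNA replicate 2 (-0.49, adjusted p = 0.0802) and with scaling by total counts (-0.42, adjusted p = 0.0584). The second was kept in all alternatives run. A two-sided exact permutation test gave Aif1 p = 0.2 and p = 0.1.

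A set of 74 ribosomal protein genes moved in the same direction as Aif1 and Tyrobp. It was looked at after the data were seen. With TDP-43 siRNA 0 rose and 22 fell, with a median log2 fold change of -0.32, and with ATP as well 0 rose and 65 fell, with a median of -0.76. Among all tested genes, 18.2% and 20.0% fell. Scrambled replicate 1, lowest of its group for Aif1 and Tyrobp, was also the lowest of its group for these genes, with a median deviation of -0.25 from the group mean on the log2 scale. The other groups were mixed. TDP-43 siRNA replicate 2, lowest of its group for Aif1 and Tyrobp, was the highest for the ribosomal protein genes, at 0.13. Replicate 2 of the group with ATP, highest for Aif1 and Tyrobp, was at -0.08, below replicate 1 at 0.20. Replicate 3 of that group, lowest for Aif1 and Tyrobp, was also the lowest for the ribosomal protein genes, at -0.11. The part of the ribosomal protein genes in the results for Aif1 and Tyrobp was not tested.

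Cd68 is a lysosomal membrane glycoprotein of phagocytes that other cells also express at low level. It stood at 20.8, 16.8 and 14.1 CPM with scrambled siRNA, 17.2, 10.9 and 19.2 CPM with TDP-43 siRNA, and 18.4, 23.7 and 19.4 CPM with ATP. The groups overlapped. Its log2 fold changes were -0.13 (SE 0.20, edgeR adjusted p = 0.655) with TDP-43 siRNA, 0.24 (SE 0.20, edgeR adjusted p = 0.361) with ATP as well and 0.37 (SE 0.20, edgeR adjusted p = 0.472) between the last pair.

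C1qa and C1qb encode the A and B chains of C1q, which tags synapses and debris for removal. C1qa stood at 54.5, 55.2 and 47.4 CPM with scrambled siRNA, 42.9, 43.3 and 52.8 CPM with TDP-43 siRNA, and 47.8, 64.3 and 44.3 CPM with ATP. C1qb stood at 43.5, 62.8 and 44.5 CPM, then 43.5, 32.7 and 44.4 CPM, then 50.5, 61.8 and 43.4 CPM. The groups overlapped for both chains. With TDP-43 siRNA the log2 fold changes were -0.17 (SE 0.14, edgeR adjusted p = 0.364) for C1qa and -0.31 (SE 0.17, edgeR adjusted p = 0.163) for C1qb. With ATP against TDP-43 siRNA alone they were 0.17 (SE 0.14, edgeR adjusted p = 0.698) and 0.37 (SE 0.16, edgeR adjusted p = 0.362). The third chain, C1qc, which lies between them in the genome, was at 37.4 ± 3.13, 34.9 ± 2.29 and 40.03 ± 9.87 CPM (SD, n = 3), with log2 fold changes of -0.10 and 0.10 against scrambled siRNA (edgeR adjusted p = 0.644 and 0.645).

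The profile of each member over the 9 libraries, as log2 CPM centred on its own mean, was set against the others by the mean absolute difference. Among the 45 pairs the most alike were Csf1r and C1qa, at 0.083, followed by Trem2 and C1qb at 0.13. Itgam and Ptprc were at 0.19, and so were Aif1 and Tyrobp. The least alike were Aif1 and Ptprc, at 0.60. Of the other genes, Ctss, a lysosomal protease of phagocytes, came nearest to C1qa at 0.044, followed by Acadm and Mfsd5. Nearest to Itgam were Hmha1, Slc16a3 and Cd14, to Csf1r Tax1bp1, Acadm and Pcca, to Aif1 Cmc1, RGD1359290 and Siva1, and to Tyrobp Nudt19, Pold4 and Ubl5. The mean profile of the 10 members was nearest to those of Zfp775, Clk2, Plxnd1, Zfp579 and Trim65, at 0.061 to 0.067. The points share their library, so depth and scaling enter each profile alike.

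**Figure D3:**
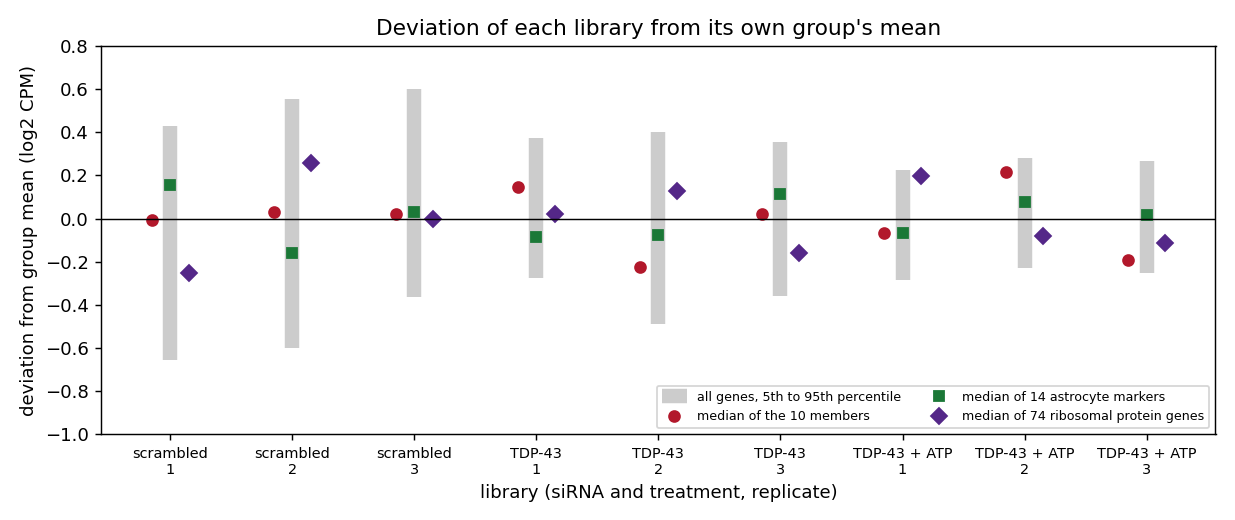
Deviation of each library (x axis) from the mean of its own group (y axis, log2 CPM), as the median of the 10 members, of 14 astrocyte markers and of 74 ribosomal protein genes. Grey bars span the 5th to 95th percentile of all genes. The members' median is lowest in TDP-43 siRNA replicate 2, at -0.23, and highest in TDP-43 siRNA and ATP replicate 2, at 0.22.

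Within a group, 1 library could be high or low for most members. Replicate 2 with TDP-43 siRNA and ATP was the highest of its group for all 10 members, with a median deviation of 0.22 on the log2 scale, and replicate 3 was the lowest for 7. Replicate 2 with TDP-43 siRNA alone was the lowest for 7, with a median deviation of -0.23. The median of 18 tested pan-leukocyte and integrin genes deviated by 0.22, -0.19 and -0.20 in these libraries. Astrocyte markers deviated by 0.08, 0.02 and -0.08. In the scrambled group the members' medians deviated by -0.01, 0.03 and 0.02, and those of the pan-leukocyte and integrin genes by 0.19, -0.04 and -0.14.

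**Figure D4:**
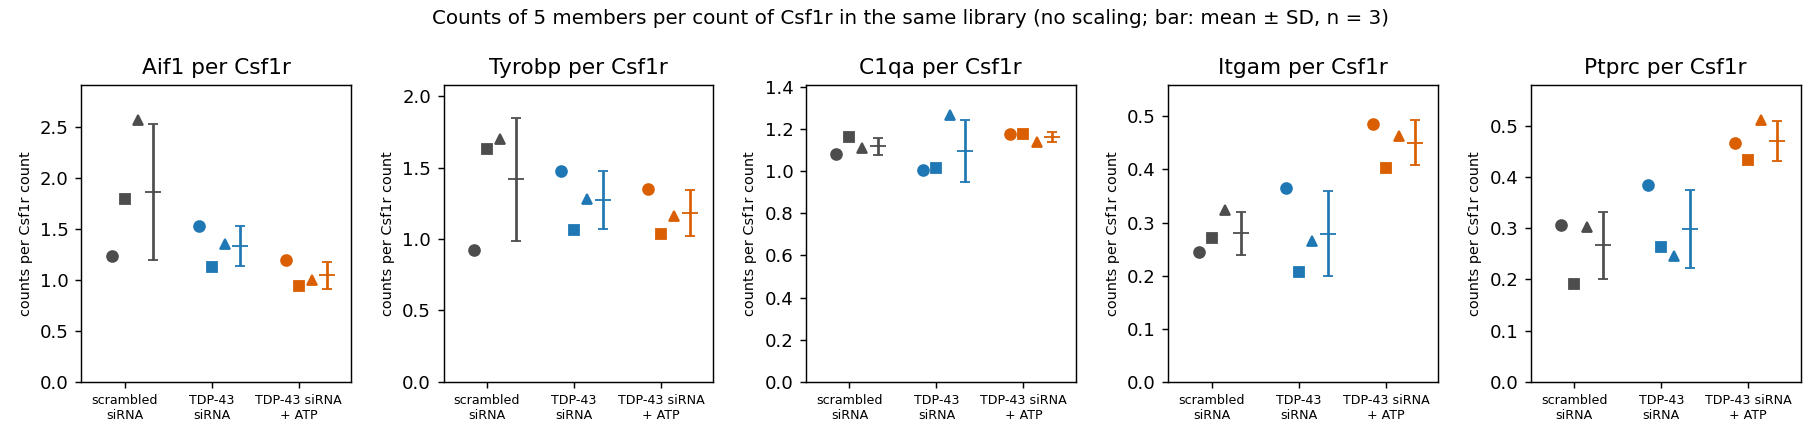
Counts of Aif1, Tyrobp, C1qa, Itgam and Ptprc per count of Csf1r in the same library (y axis, starting at 0) in the 3 groups (x axis). Circles, squares and triangles are replicates 1, 2 and 3, and the bar is the mean with the SD of 3 libraries. Itgam and Ptprc per Csf1r are above all other libraries with ATP, and C1qa per Csf1r stays near 1.1.

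Ratios within a library do not depend on its scaling. Itgam counts per Csf1r count were 0.280 ± 0.0403 with scrambled siRNA, 0.279 ± 0.0801 with TDP-43 siRNA and 0.451 ± 0.0430 with ATP (SD, n = 3). Ptprc counts per Csf1r count were 0.266 ± 0.0653, 0.298 ± 0.0755 and 0.470 ± 0.0387. For both, the 3 libraries with ATP were above the other 6. Aif1 counts per Csf1r count were 1.86 ± 0.670, 1.33 ± 0.199 and 1.04 ± 0.131, and the libraries with ATP were below the scrambled ones. C1qa counts per Csf1r count were 1.12 ± 0.0401, 1.095 ± 0.148 and 1.16 ± 0.0233. No test was made of these ratios.

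A further list held ligands of Csf1r and Cx3cr1, the proteases Adam10 and Adam17, and the growth factor Tgfb2. Of its 6 tested genes, 0 rose and 4 fell with TDP-43 siRNA. For this and the lists that follow, the share of all tested genes that passed was 34.3% with TDP-43 siRNA. It was 37.4% with ATP as well and 1.07% between the last pair. The list's median log2 fold change was -0.79, beside 0.01 for all genes. Csf1 stood at 495, 398 and 406 CPM with scrambled siRNA, 297, 267 and 273 CPM with TDP-43 siRNA, and 365, 361 and 344 CPM with ATP. Its groups did not overlap, as was so for 41.6%, 48.9% and 25.8% of all genes in the 3 comparisons. Csf1 fell by 0.64 with TDP-43 siRNA (edgeR adjusted p = 0.000397). It did not pass with ATP as well (edgeR adjusted p = 0.0567) or between the last pair (edgeR adjusted p = 0.148). Il34, the other ligand of Csf1r, stood at 6.92, 7.32 and 4.83 CPM, then 2.07, 1.34 and 2.88 CPM, then 3.70, 4.78 and 3.11 CPM. It fell by 1.57 on the log2 scale with TDP-43 siRNA (edgeR adjusted p = 0.00104). Il34 did not pass with ATP as well (edgeR adjusted p = 0.0662) or between the last pair (edgeR adjusted p = 0.207).

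Cx3cl1 encodes fractalkine, the ligand of Cx3cr1. It stood at 25.1, 28.2 and 26.9 CPM with scrambled siRNA, 22.8, 26.2 and 27.4 CPM with TDP-43 siRNA, and 42.8, 50.2 and 42.2 CPM with TDP-43 siRNA and ATP. The libraries with ATP were well above all others. Cx3cl1 rose by a log2 fold change of 0.83 against TDP-43 siRNA alone (edgeR adjusted p = 0.00343) and by 0.76 against scrambled siRNA (edgeR adjusted p = 0.000178). Adam10, a protease that sheds fractalkine, fell by 1.22 with TDP-43 siRNA (edgeR adjusted p = 1.34e-06) and by 1.08 with ATP as well (edgeR adjusted p = 3.49e-06). Tgfb2, a growth factor of the family that maintains microglia, fell by 0.94 with TDP-43 siRNA (edgeR adjusted p = 1.38e-05) and rose by 0.63 with ATP (edgeR adjusted p = 0.0139), the latter in fits with all libraries but not without TDP-43 siRNA replicate 2 or 3 or ATP replicate 1 or 3.

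**Figure D5:**
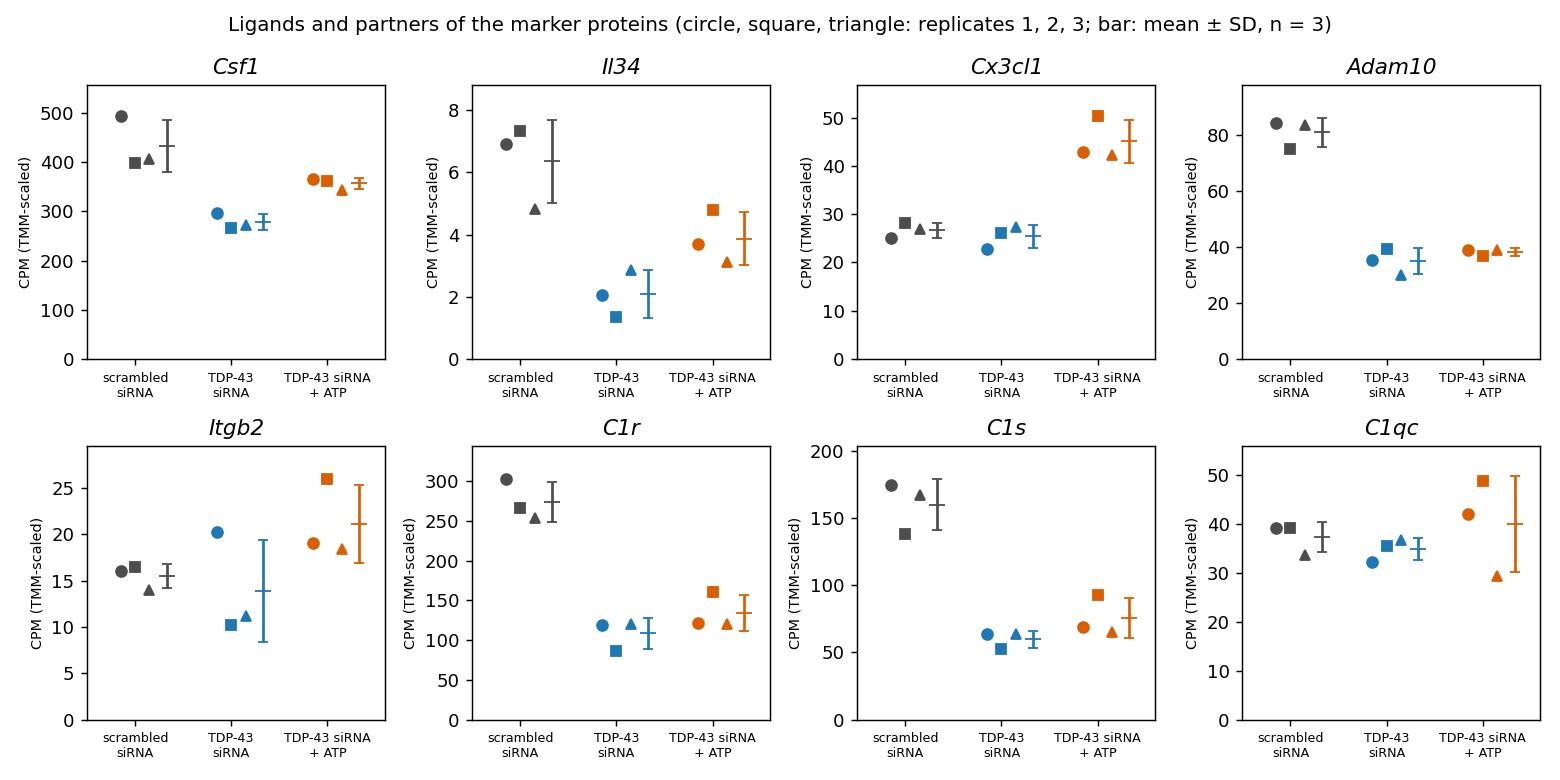
Levels (y axis, CPM on TMM-scaled totals, starting at 0) of ligands and partners of the marker proteins in the 3 groups (x axis). Circles, squares and triangles are replicates 1, 2 and 3, and the bar is the mean with the SD of 3 libraries. Csf1, Il34, Adam10, C1r and C1s are lower with TDP-43 siRNA, Cx3cl1 is higher with ATP, and C1qc overlaps in all 3 groups.

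C1q carries a pair of proteases, C1r and C1s, and both fell. C1r stood at 302, 267 and 254 CPM with scrambled siRNA, 120, 86.5 and 120 CPM with TDP-43 siRNA, and 122, 161 and 120 CPM with ATP. C1s stood at 174, 138 and 167 CPM, then 63.5, 52.7 and 63.5 CPM, then 69.2, 92.9 and 65.1 CPM. Both were higher in every scrambled library than in any other. With TDP-43 siRNA, C1r fell by 1.33 (edgeR adjusted p = 4.98e-06) and C1s by 1.42 (edgeR adjusted p = 2.2e-06). C1r counts per C1qa count were 5.25 ± 0.372, 2.35 ± 0.401 and 2.59 ± 0.111 (SD, n = 3). Of 13 tested complement genes beside the members, 0 rose and 8 fell with TDP-43 siRNA, 1 rose and 5 fell with ATP as well, and 2 rose and 0 fell between the last pair. The deepest fall was that of Cd59, which shields cells from complement, by 1.54 (edgeR adjusted p = 3.36e-08). C5ar1, the receptor for the complement fragment C5a, rose by a log2 fold change of 1.60 against scrambled siRNA (edgeR adjusted p = 0.000187) and by 1.34 against TDP-43 siRNA alone (edgeR adjusted p = 0.0163). The second call was lost without replicates 1 or 3 of TDP-43 siRNA or 2 or 3 of the group with ATP. Cfb, the other gene that rose between the last pair, lost that call in 4 of the 6 fits that left out a library (edgeR adjusted p up to 0.264). Its fall with TDP-43 siRNA lost its call in 1 of 6 (0.0548). C2 and Serping1, among the 5 that fell with ATP as well, each lost that call in 3 of 6 (up to 0.0706 and 0.0863).

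Adaptors, receptors and kinases of immunoreceptor signalling made up a further list. Of 19 tested, 0 rose and 1 fell in each comparison with scrambled siRNA, and 0 passed between the last pair. The gene that fell was Sirpa, an inhibitory receptor that binds Cd47, by 0.47 in both (edgeR adjusted p = 0.00199 and 0.00171). Fcer1g, an adaptor of Fc receptors, stood at 77.9 ± 18.9, 71.3 ± 6.53 and 69.8 ± 2.63 CPM (SD, n = 3), with log2 fold changes of -0.12, -0.15 and -0.03, none of which passed.

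Of 11 tested transcription factors of myeloid cells, 0 rose and 2 fell with TDP-43 siRNA and 0 rose and 2 fell with ATP as well. Among all tested genes, 18.2% and 20.0% fell. Tfec, which is related to Mitf and expressed in macrophages, fell by 2.79 and 2.98 (edgeR adjusted p = 0.000213 and 0.000108). Maf fell with TDP-43 siRNA by 0.68 (edgeR adjusted p = 0.0226). The call of Maf was lost without scrambled replicate 1 or 3 or TDP-43 siRNA replicate 2 (edgeR adjusted p = 0.0854, 0.0619 and 0.0919). Spi1, which encodes PU.1, stood at 16.9 ± 2.92, 13.8 ± 1.56 and 14.7 ± 2.11 CPM (SD, n = 3) and did not pass.

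Among 18 genes of the homeostatic microglial state, 1 rose and 6 fell with TDP-43 siRNA and 0 rose and 6 fell with ATP as well. The shares of all tested genes that passed were 34.3% and 37.4%. Of the first 6, Tmem119 (edgeR adjusted p = 0.0442) lost its call without scrambled replicate 1 or 2 or TDP-43 siRNA replicate 1 or 2 (adjusted p = 0.0633 to 0.183) and with the replicate block (0.0709). Tgfbr1 lost its call without scrambled replicate 1 (0.0666) or TDP-43 siRNA replicate 3 (0.0869). Of the second 6, Olfml3 (edgeR adjusted p = 0.0459) lost its call without scrambled replicate 1 or 3 or any library with ATP (adjusted p = 0.0786 to 0.159). Gas6, also of the second 6, lost its call there in 2 of the 6 fits that left out a library (adjusted p up to 0.0824). Sall1, the gene that rose with TDP-43 siRNA, lost its call in 1 of 6 (0.0667). The list's median log2 fold changes were -0.09 and -0.24, beside 0.01 for all genes in both. With TDP-43 siRNA, Sparc fell by 1.18, Gas6 by 0.71 and Pros1 by 0.63 on the log2 scale. Sparc and Gas6 are also made by astrocytes, and stood at 8744 and 661 CPM with scrambled siRNA. The cell of origin of the calls in this list was not tested. P2ry13, P2ry6, Gpr34, Siglec5 and Selplg were among those that passed in neither comparison. Their log2 fold changes with TDP-43 siRNA were 0.46, -0.24, -0.06, 0.02 and 0.24. Tmem119, a marker used to tell microglia from other macrophages, stood at 29.1 ± 4.23, 21.3 ± 4.36 and 19.8 ± 1.41 CPM (SD, n = 3) and fell with ATP as well by 0.55 (edgeR adjusted p = 0.0125, and 0.0574 without replicate 1 of that group). P2ry12, an ADP receptor of resting microglia, had 7 to 58 counts per library and did not pass.

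Of 18 tested pan-leukocyte and integrin genes, 0 rose and 2 fell with TDP-43 siRNA, 1 rose and 4 fell with ATP as well, and 1 rose and 0 fell between the last pair. The shares of all tested genes that passed were 34.3%, 37.4% and 1.07%. Cyba, a subunit of the phagocyte oxidase, fell by 1.01 and 1.34 (edgeR adjusted p = 2.08e-05 and 1.3e-06). Lsp1, an actin-binding protein of leukocytes, fell by 1.01 and 1.03. Cd53, a tetraspanin of leukocytes, rose against TDP-43 siRNA alone by 0.87 (edgeR adjusted p = 0.0399), and this call was lost in every fit that left out a library of the 2 groups. It was also the gene that rose against scrambled siRNA, by 0.52 (edgeR adjusted p = 0.0447), a call lost without scrambled replicate 1 or 3 or any library with ATP (adjusted p = 0.0671 to 0.157). Itgal, an integrin chain of leukocytes, fell with ATP as well by 0.53 (edgeR adjusted p = 0.0377), a call lost without scrambled replicate 1 or 3 or replicate 1 or 3 of the group with ATP (adjusted p = 0.0535 to 0.212).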

How the data were processed

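The authors deposited raw counts of genes by symbol for 9 poly(A) libraries made with a TruSeq kit, per the labels' protocols, and of repeat elements for the same libraries. Per the submitters' processing notes, the tools included TopHat2, Bowtie2, Trimmomatic and DESeq2, with the genome build rn6. No source used here states the counting tool, whether it used strand, or the gene annotation. Of 17337 rows, 26 whose symbols had become dates were left out. Groups came from the sample labels.

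In R 4.3.3, genes passing filterByExpr were scaled by TMM and fitted in edgeR 4.0.16 by glmQLFit, with 1 mean per group over all 9 libraries, and compared by glmQLFTest, with Benjamini-Hochberg adjustment over 12096 genes at 0.05. The script was tested on simulated data. Alternatives were DESeq2 1.42.0, 3 other scalings, 2 other filters, only the compared groups, a replicate block and each library left out. Profiles used log2 CPM with a prior count of 2. Named genes were Tardbp, the members, up to 4 passing genes of each list and the nearest profiles. Exact permutation tests were two-sided. No pair of libraries of a group agreed within sampling noise (lowest chi-square per degree of freedom 11.0).

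The members and lists were chosen with earlier results of these data known, and the ribosomal protein set after seeing the data. Symbols matched a GRCr8 gene table for 14821 genes, used for names and neighbours. Member counts ran from 59 to 2300 per library, and at the lower counts counting error is part of the spread between libraries. Some genes that the rule would name are not reported here.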

Additional observations from a re-analysis of the deposited data

How the results depend on the processing

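Of 420 alternative values of the members' log2 fold changes, 362 kept direction and side of the threshold. Those of Aif1, Itgam and Ptprc in the group with ATP against the scrambled group kept their direction in each alternative. Without scrambled replicate 1, Cd68 (0.0529), Cx3cr1 (0.0565) and Ptprc (0.19) with TDP-43 siRNA turned above 0, and with ATP as well C1qa (0.0311) turned above 0 and Trem2 (-0.0075) and C1qb (-0.038) below 0. The causes of the changes were not tested.

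Total-count scaling gave 3427 genes higher and 1436 lower with TDP-43 siRNA (1956 and 2198 in the report), 4099 and 1400 with ATP as well (2106 and 2415), 0 members called with TDP-43 siRNA, 1 between the groups with and without ATP, and summed levels of 341, 317 and 364 CPM in the scrambled, TDP-43 siRNA and ATP groups (374, 308 and 341 in the report). It moved to above 0 the values with TDP-43 siRNA of Cd68 (0.0416), Csf1r (0.0237), Itgam (0.0431), Trem2 (0.0437), Cx3cr1 (0.0742), Ptprc (0.16), Itgb2 (0.0148), C1qc (0.0678), Fcer1g (0.0537) and Cx3cl1 (0.10), with ATP as well of Csf1r (0.16), C1qa (0.22) and Fcer1g (0.0768), and between the last pair of Tyrobp (0.0022) and Fcer1g (0.0231). Ptprc with TDP-43 siRNA was at 0.0057 with DESeq2, 0.0058 with no filter, 0.0172 with upper-quartile scaling and 0.0044 with the replicate block. C1qa with TDP-43 siRNA and ATP was at 0.006 with no filter and 0.0247 with upper-quartile scaling.

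Between the groups with and without ATP, genes higher and lower (112 and 17 in the report) numbered 261 and 142 with DESeq2, 431 and 386 with the 2 groups alone and 62 and 6 with the replicate block, and with no filter 36 were lower. Members called numbered 2, 2 and 0 in these first 3 fits and 1 with no filter. With the 2 groups alone, 1300 genes were higher with TDP-43 siRNA. The replicate numbers were not taken to pair libraries: same-numbered libraries correlated at -0.15 to 0.12, over 0.1 in 1 of 9 pairs.

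Leaving out 1 library gave 0 to 2 members called with TDP-43 siRNA, 1 to 4 with ATP as well and 0 to 1 between the last pair, where 21 to 48 genes were higher and 0 to 5 lower. With TDP-43 siRNA the log2 fold changes ran from -0.29 to 0.0702 for Cd68, -0.30 to 0.0565 for Cx3cr1, -0.38 to 0.0402 for Itgam, -0.24 to 0.19 for Ptprc, -0.34 to 0.0684 for Trem2, -0.53 to 0.0177 for Itgb2, -0.26 to 0.0877 for Fcer1g and -0.12 to 0.0064 for Cx3cl1. With ATP as well they ran from -0.18 to 0.10 for C1qa, -0.0887 to 0.24 for C1qb, -0.0632 to 0.28 for C1qc, -0.23 to 0.0263 for Csf1r, -0.0407 to 0.33 for Cx3cr1, -0.29 to 0.0564 for Fcer1g and -0.0741 to 0.18 for Trem2. Between the last pair they ran from -0.0098 to 0.28 for C1qa, -0.0901 to 0.17 for Csf1r, -0.10 to 0.0354 for Fcer1g, -0.0344 to 0.22 for Tardbp, -0.26 to 0.0132 for Tmem119, -0.0305 to 0.38 for Trem2 and -0.16 to 0.0756 for Tyrobp. With 3 libraries a group, members whose groups overlap are not shown to be unchanged.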

Other observations

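Of 26 tested genes of phagocytic and activated myeloid cells, 3 rose and 4 fell with TDP-43 siRNA and 6 rose and 2 fell with ATP as well. Among all tested genes, 34.3% and 37.4% passed in these comparisons. Groups did not overlap for 41.6% and 48.9% of all genes, and for 25.8% between the last pair. Spp1, which encodes the secreted protein osteopontin, stood at 148 ± 25.8, 312 ± 62.8 and 497 ± 21.4 CPM (SD, n = 3), with no overlap between the 3 groups, and rose by log2 fold changes of 1.08 and 1.75 (edgeR adjusted p = 4.2e-05 and 4.41e-07). Gpnmb, a glycoprotein of lipid-laden phagocytes, rose from 60.0 ± 12.4 to 89.5 ± 5.35 and, with ATP, 122 ± 17.9 CPM. Nos2, the inducible nitric oxide synthase, stood at 0.0538 ± 0.0932, 0.774 ± 0.77 and 1.59 ± 0.304 CPM and passed in both comparisons with scrambled siRNA (edgeR adjusted p = 0.0238 and 0.00223). The first of these calls was lost without scrambled replicates 2 or 3 or TDP-43 siRNA replicate 2 (adjusted p = 0.0538, 0.066 and 0.154). Lgals3, a galectin, fell by 0.68 and 0.53 on the log2 scale (edgeR adjusted p = 0.00178 and 0.00917), the latter call lost without replicate 3 of the group with ATP (0.0509). Axl, a receptor for Gas6, fell by 0.69 and 0.47 (edgeR adjusted p = 0.00023 and 0.00425). Cd9, a tetraspanin, and Ctsd, a lysosomal protease, fell with TDP-43 siRNA by 0.55 and 0.49 (edgeR adjusted p = 0.00379 and 0.00806). Astrocytes can also make Spp1 and Nos2, and the cell of origin was not tested. Cd14, a coreceptor for lipopolysaccharide, stood at 23.0 ± 1.09, 20.3 ± 4.11 and 34.9 ± 5.16 CPM and rose against scrambled siRNA by 0.60 (edgeR adjusted p = 0.00637).

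Markers of other blood cells had few counts. Of 13 such genes found, 6 had 0 counts in all 9 libraries, among them Cd3e, Ms4a1 and S100a9, and 9 had at most 3 counts in any library. A 0 in this table need not mean absence, since Col1a2 was listed at 0 in all 9 libraries while Col1a1 stood at 1008 ± 64.6 CPM with scrambled siRNA (SD, n = 3). The 2 that were tested reached more counts. Cd79b, of the B cell receptor, had up to 74 and fell with ATP as well by 1.32 (edgeR adjusted p = 0.0202), a call lost without scrambled replicate 3 or replicate 1 or 3 of the group with ATP (0.0577, 0.068 and 0.0957). Kit, a receptor of mast cells and progenitors, had up to 34 counts, stood at 0.184 ± 0.318, 1.15 ± 0.288 and 1.14 ± 0.375 CPM, and rose in both comparisons with scrambled siRNA (edgeR adjusted p = 0.0276 and 0.0244). Its calls were lost without scrambled replicate 1 or 2, without TDP-43 siRNA replicate 1 or 2 in the first comparison, and without replicate 2 or 3 of the group with ATP in the second (adjusted p = 0.057 to 0.0962). Border macrophage genes gave 1 rise and 0 falls of 5 tested with TDP-43 siRNA, that of Mrc1 by 0.82 (edgeR adjusted p = 0.0293, lost in 4 of the fits that left out a library). Of 11 tested markers of fibroblasts, mural and endothelial cells, 0 rose and 7 fell with TDP-43 siRNA, with Acta2 by 2.10. Of 10 oligodendrocyte lineage markers 3 rose and 3 fell, and of 9 neuron markers 3 rose and 2 fell. Among all tested genes, 16.2% rose and 18.2% fell with TDP-43 siRNA.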
